A study of Mus musculus with 18 samples.

Results

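BMAL1 binding in mouse liver was compared with binding in mouse heart, peak by peak and gene by gene. The members are the peaks of 2 deposited lists, 4813 in liver and 2519 in heart, together 7332 of the 11366 peaks of a series that also covers kidney. Peaks that overlapped by at least 1 bp were taken as shared, and each peak was placed in its own list by its deposited score, as a percentile from 0 (lowest) to 100 (highest). The libraries compared are 3 liver and 3 heart BMAL1 ChIP libraries of the 18 ChIP and input libraries in all. All mice were wild type C57BL/6, 3 to 6 months old, kept in 12 h of light and 12 h of dark. Tissues were taken at ZT 6, which is 6 h after lights on, with liver and heart from the same 3 animals. BMAL1 was precipitated with a chicken antibody against mouse BMAL1, and DNA bound to it was sequenced (ChIP-seq). The authors called 1 peak list per tissue on its ChIP and input libraries combined, so there is no spread between animals, the depth behind each list is unknown, and none of the differences given has a replicate check. The heart input libraries carry kidney in 1 label and heart in the others.

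BMAL1, the product of Arntl, is a basic helix-loop-helix transcription factor. With its partner CLOCK it binds E-boxes, short DNA elements of the form CACGTG, and drives rhythmic transcription of the Per and Cry genes, whose products in turn repress it. Both tissues run this same feedback loop, while the rhythmic genes downstream of it are known to differ widely between them: liver clock outputs include glucose, lipid and drug metabolism, heart outputs include ion channels, contraction and fuel use. ChIP of whole tissue mixes the cell types it holds, chiefly hepatocytes in liver and muscle, endothelial and connective tissue cells in heart, and fewer cells with a site cannot be told apart from less binding per cell.

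The sequences below are examples of promoters under shared peaks and under peaks of 1 list. Each is the stretch upstream of a RefSeq start site (GRCm38.p6, the build named mm10 in the submitters' processing notes) that lies under the peak, written 5' to 3' on the strand of the gene. Capitals mark CACGTG and its 1-base variant CACGTT, which reads AACGTG on the other strand. The first 3 promoters lay under peaks present in both lists, and the liver peak is shown. At Per1 this is the weaker of 2 shared sites, with scores of 196 in liver and 158 in heart. It lies at a start site inside the gene. Per1 encodes a core repressor of the clock, Ciart a rhythmic repressor that acts on CLOCK and BMAL1, and Ldha a subunit of lactate dehydrogenase.
Per1, chr11:69098699-69098913, plus strand: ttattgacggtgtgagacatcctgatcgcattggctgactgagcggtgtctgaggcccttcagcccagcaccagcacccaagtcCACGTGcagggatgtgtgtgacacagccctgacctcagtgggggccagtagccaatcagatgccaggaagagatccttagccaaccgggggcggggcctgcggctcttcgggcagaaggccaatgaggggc
Ciart, chr3:95882229-95882423, minus strand: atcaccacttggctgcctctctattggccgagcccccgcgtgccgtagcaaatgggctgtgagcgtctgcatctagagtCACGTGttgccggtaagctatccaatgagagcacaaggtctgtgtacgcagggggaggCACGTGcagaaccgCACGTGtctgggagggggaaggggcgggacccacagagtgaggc
Ldha, chr7:46845659-46845803, plus strand: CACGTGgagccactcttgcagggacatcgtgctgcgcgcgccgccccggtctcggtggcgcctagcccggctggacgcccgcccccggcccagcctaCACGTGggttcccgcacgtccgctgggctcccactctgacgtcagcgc
The motif lay 166 bases upstream of the start site in Per1, at 116, 58 and 44 bases in Ciart and at 145 and 48 bases in Ldha, where the narrower heart peak covers 1 of the 2. The next promoter is that of Itpr3, an inositol trisphosphate receptor of the endoplasmic reticulum, where both lists had a peak but at very different places in the list. The heart peak is shown, with a motif 85 bases upstream of the start.
Itpr3, chr17:27057113-27057303, plus strand: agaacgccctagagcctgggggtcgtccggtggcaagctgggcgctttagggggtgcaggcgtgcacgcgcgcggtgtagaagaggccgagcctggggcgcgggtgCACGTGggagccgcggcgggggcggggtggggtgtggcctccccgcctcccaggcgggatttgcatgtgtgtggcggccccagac
Dvl2, a signalling protein of the Wnt pathway, and Slc20a1, a phosphate transporter, had liver peaks of high score and no overlapping heart peak. Their motifs lay 123, 76 and 33 bases upstream of the start in Dvl2 and 175 and 22 bases in Slc20a1.
Dvl2, chr11:70000413-70000591, plus strand: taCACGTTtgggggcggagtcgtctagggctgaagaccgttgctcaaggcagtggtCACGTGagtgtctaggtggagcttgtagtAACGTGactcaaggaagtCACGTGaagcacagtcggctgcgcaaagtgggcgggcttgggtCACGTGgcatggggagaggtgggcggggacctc
Slc20a1, chr2:129198559-129198772, plus strand: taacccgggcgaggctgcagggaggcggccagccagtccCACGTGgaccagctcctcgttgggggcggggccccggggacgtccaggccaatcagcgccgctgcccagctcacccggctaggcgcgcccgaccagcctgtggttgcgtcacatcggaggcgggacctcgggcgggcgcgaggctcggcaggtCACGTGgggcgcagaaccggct
Arl4a, a small GTPase of the Arf family, and Rasl11b, a Ras-like protein, had heart peaks of high score and no overlapping liver peak. Neither stretch holds CACGTG, and each holds the variant once. Of the 5 such heart peaks at a promoter searched below, these are the 2 with the variant. The stretch under the heart peak at Trim37, not shown, holds neither motif.
Arl4a, chr12:40037988-40038171, minus strand: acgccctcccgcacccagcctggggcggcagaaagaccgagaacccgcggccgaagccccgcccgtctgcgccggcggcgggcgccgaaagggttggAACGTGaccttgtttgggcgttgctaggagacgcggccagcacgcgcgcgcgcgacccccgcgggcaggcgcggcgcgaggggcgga
Rasl11b, chr5:74195076-74195204, plus strand: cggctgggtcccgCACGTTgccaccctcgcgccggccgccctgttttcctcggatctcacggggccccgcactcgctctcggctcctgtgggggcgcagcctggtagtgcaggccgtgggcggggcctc

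CACGTG was searched in the promoter windows of the RefSeq table, which run from 250 bases before to 50 bases after a start site and are 300 bases long. The motif reads the same on both strands, and the table has no window on chromosome 18. Of all 32817 windows, 7.15% held it (2346). Of 326 windows under a shared peak, 49.7% held it (162). Of 76 windows under a top-10% liver peak without heart overlap, 51.3% held it (39). The shared peaks are of every score, so the 2 shares are not from like parts of the list. Of 6 windows under a top-10% heart peak without liver overlap, 0 held it and 3 held CACGTT. The 6 windows lay under only 5 peaks, and those with CACGTT under 2 of them, too few to read as a share. For CACGTT the share was 4.69% of all windows (1538) and 10.4% of those under a shared peak (34 of 326). Under the liver peaks without heart overlap it was 6.58% (5 of 76). Windows under shared pairs that stood at least 20 percentile points higher in heart held CACGTG in 12 of 28 cases, and those under pairs at least 20 points higher in liver in 1 of 7. A match describes these letters only, most peaks lay outside the windows, and windows of 1 gene can overlap. The motif was counted anywhere in a window and can lie outside the peak, as at Cry1.

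It is not known whether scores of the 2 lists share a scale. Liver peaks were 242 bp wide with scores from 17 to 389 and a median of 40, and heart peaks were 198 bp wide with scores from 16 to 375 and a median of 25. Many peaks tie near the floor of the heart list, where scores of 16, 17 and 18 stand for percentiles of 6.05, 16.9 and 24.6, so that a step of 1 in score there moves a peak by 8 to 11 points. The liver list is also much the longer one. A percentile difference between lists of such different length therefore describes the place of a site in each list and does not show a change in binding, and the deposited scores are given beside it throughout.

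Liver and heart shared 654 pairs of peaks. These are 13.6% of the liver list (exact Clopper-Pearson 95% interval 12.6 to 14.6%, counting error only) and 26.0% of the heart list (24.3 to 27.7%). Sharing was steeply tied to the score. In the lowest 10% of the list 2.27% of liver peaks (11 of 485) and 0.656% of heart peaks (2 of 305) had a partner, and in the top 10% 56.4% of liver peaks (272 of 482) and 90.4% of heart peaks (226 of 250). Partners lay close together, with centres a median of 19 bp apart.

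**Figure D1:**
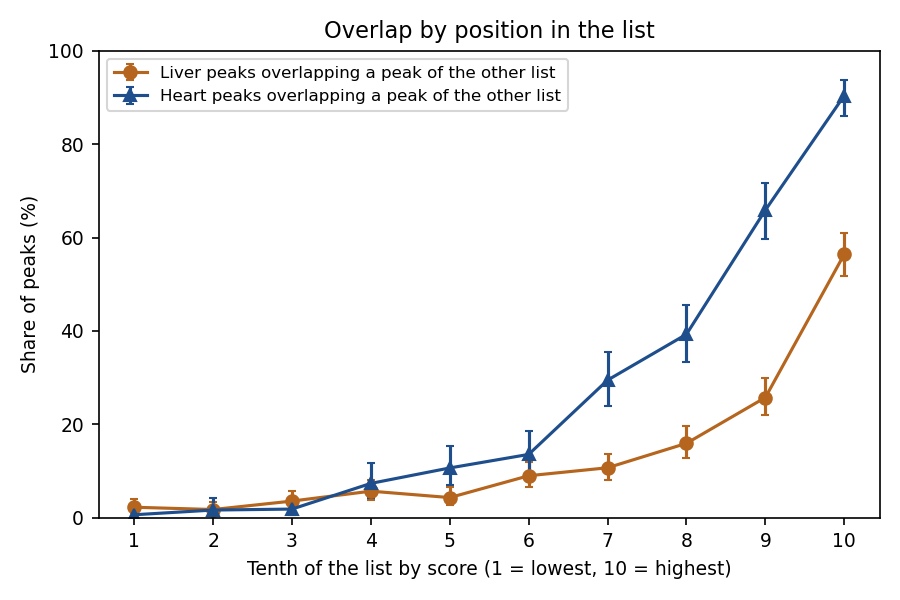
Share of peaks (%, y axis) that overlap a peak of the other list, by steps of 10% of the list from the lowest to the highest score (x axis), for liver (circles) and heart (triangles); bars are exact 95% intervals for counting error. The share climbs to 56.4% in the top 10% of the liver list and 90.4% in the same part of the heart list.

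Most shared sites held a similar place in both lists. The percentile in liver minus that in heart had a median of 0.33 points (binomial interval of the median 0.01 to 0.89), with quartiles of -7.44 and 5.55, and 407 of 654 pairs (62.2%) lay within 10 points of each other. In 193 pairs both peaks were in the top 10%. The deposited score was higher in the liver list for 517 pairs, higher in the heart list for 125 and equal for 12. A difference of at least 20 points was found in 51 pairs that stood higher in liver (7.80%) and in 83 that stood higher in heart (12.7%). The direction of the median turned with the base of the percentile, to -6.14 when the liver list was shortened to its 2545 best peaks and to -0.99 among the shared peaks only. The counts past 20 points, higher in liver and in heart, moved as well. They were 17 and 160 with the shortened list, 76 and 74 with the upper 50% of each list, and 84 and 87 among the shared peaks only, so the larger number in heart does not hold under every base.

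**Figure D2:**
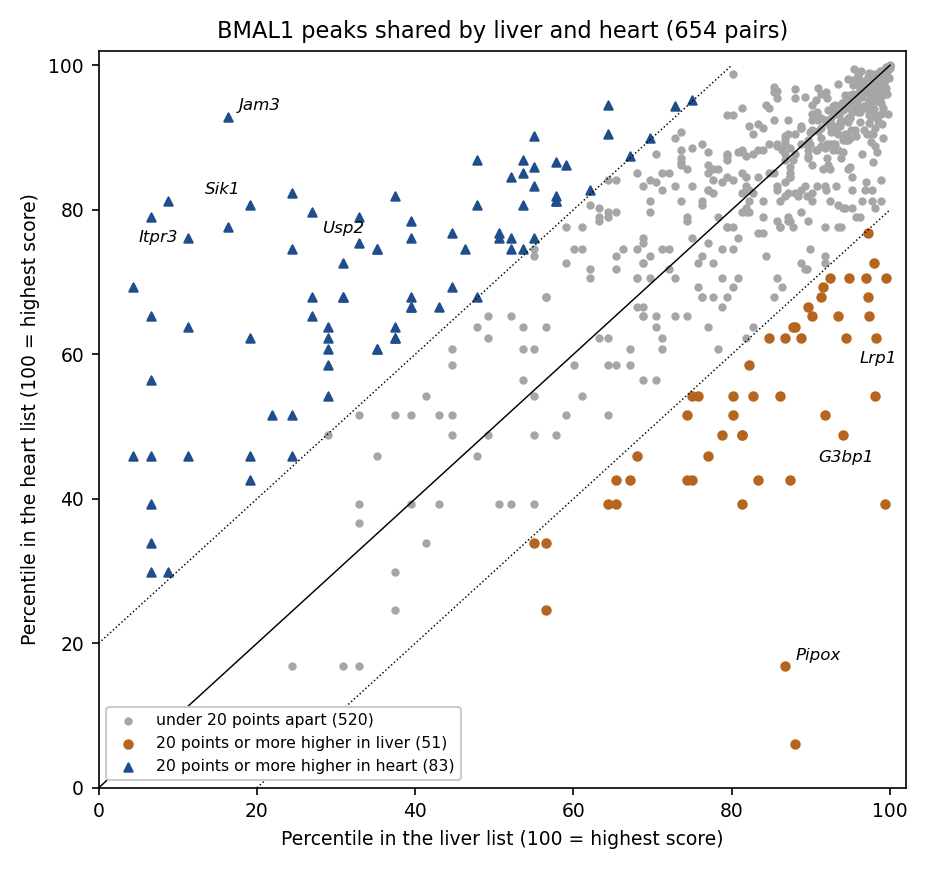
Percentile of each of the 654 shared pairs in the liver list (x axis) and in the heart list (y axis), both from 0 to 100; the solid line marks equal percentiles and the dotted lines a difference of 20 points. Pairs crowd at the upper right corner, 51 lie at or below the lower dotted line (circles) and 83 at or above the upper one (triangles).

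Clock genes held much the same place in both lists. Of 20 genes of the clock and its outputs, 17 had a liver peak and 19 a heart peak assigned, against 14.9% and 9.62% of all 21631 protein-coding genes, and 16 had a shared pair, against 2.73% of all. Their 32 pairs had a median difference of 0.10 points, 29 of them lay under 3 points apart (221 of all 654 pairs, 33.8%), and 27 were in the top 10% of both lists (29.5% of all pairs). Nr1d1 and Nr1d2, which encode the nuclear receptors REV-ERB alpha and beta, held the first 2 places of both lists. The scores were 389 in liver and 375 in heart at Nr1d1 and 345 and 324 at Nr1d2. This Nr1d1 site lay 8118.5 bp outside the gene and 232.5 bp from the end of another annotated gene. The shared sites inside Nr1d1 scored 306 and 277 in liver and 305 and 247 in heart. Dbp, which encodes a rhythmic PAR bZIP factor, had 3 shared sites, with scores of 321, 315 and 217 in liver and 308, 256 and 208 in heart. Its relatives Tef and Hlf scored 288 and 297 at their best Tef site and 282 and 300 at their best Hlf site, in liver and heart respectively. That Hlf site lay 27200 bp outside the gene. The period genes followed suit: the best sites scored 318 in liver and 262 in heart at Per1, 228 and 241 at Per2, and 236 and 273 at Per3. The cryptochrome genes, which encode the other core repressors, scored 217 and 200 at Cry1 and 253 and 274 at the best Cry2 site. Bhlhe40 and Bhlhe41, repressors that compete for E-boxes, had 3 shared sites each, from 119 to 269 and from 157 to 205 in liver, and from 103 to 250 and from 149 to 183 in heart. Ciart scored 255 and 220 and Wee1, a cell cycle kinase, 154 and 106.

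The exceptions in the clock list were few. The second Per2 site, inside the gene, scored 91 in liver and 32 in heart and stood 24.3 points higher in liver. Nfil3, which encodes a repressor of the genes that DBP activates, had a site that scored 191 and 51 and stood 17.5 points higher in liver. Another Hlf site scored 62 in both lists, which is 12.6 points higher in heart by percentile. Rora, an activator of Arntl transcription, had 5 liver peaks with scores up to 58 and 2 heart peaks with scores of 18 and 17, and none overlapped. Arntl and Clock, the genes of BMAL1 and its partner, had no liver peak and 1 heart peak each near the floor of the list, with scores of 16 and 18. Npas2, a relative of Clock, had none in either list.

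Named here are the 15 genes with the largest percentile difference towards liver. The largest difference at a gene was at Pipox, which encodes a peroxisomal enzyme that oxidises pipecolate and sarcosine. Its peak, 639.5 bp outside the gene and upstream of its start (chr11:77894346-77894587 in liver), scored 87 in liver and 17 in heart, percentiles of 86.7 and 16.9 and a difference of 69.8 points. G3bp1, a stress granule protein, followed with 120 in liver and 25 in heart at a site 1423 bp outside the gene (45.2 points). Lrp1, a large endocytic receptor of the LDL receptor family, had a site 666 bp upstream (chr10:127621697-127621938) with 174 in liver and 31 in heart (36.0 points). Inside Tmem266, a membrane protein with a voltage sensor, a site scored 171 and 27 (43.9 points), and inside B4galt1, a galactosyltransferase of the Golgi, 123 and 31 (32.2 points). Of these 5 sites, those at G3bp1, Lrp1, Tmem266 and B4galt1 were in the top 10% of the liver list and near the middle of the heart list, while the Pipox site was near the heart floor.

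The other genes of this set also had liver scores well above their heart scores. Vps13d, a lipid transfer protein, scored 89 in liver and 23 in heart. Cpeb4, which controls polyadenylation of cytoplasmic mRNAs, had its site 31518.5 bp outside the gene, at 74 and 22. Gtf2ird1, a transcription factor, scored 78 and 23, and Dnttip2, a nucleolar protein, 106 and 26 at a site 27878 bp away. Arhgef1, a guanine nucleotide exchange factor, scored 64 and 23. Jkamp, a membrane protein that binds the kinase JNK1, and Klc3, a kinesin light chain, scored 74 and 25 each, at sites 13.5 and 22.5 bp from a gene end. Meiob, a meiotic DNA-binding protein, scored 63 and 23. Klf13, a zinc finger transcription factor, scored 85 and 27 at this site, while its other shared sites scored 104 and 75 in one case and 72 and 57 in the other, 1.32 points higher in liver and 4.07 points higher in heart. Chn1, a Rac GTPase-activating protein, scored 44 and 18. It was the only one of the 15 whose direction turned with the shortened liver list, to -6.85 points.

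In all 51 pairs that stood at least 20 points higher in liver the deposited score was higher in the liver list. The median scores of these pairs were 87 in liver and 27 in heart. The choice of pairs fixed this direction. Over most of the range the liver score at a given percentile was the higher one, with upper quartiles of 64 in liver and 41 in heart. The pair of largest difference had no protein-coding gene within 50 kb and lay on chromosome 10, with scores of 91 and 16 (82.0 points). Another such pair on chromosome 6 scored 219 and 22 (60.0 points). Just inside the limit of 20 points lay Usp36 (153 and 44, 20.4 points) and just outside it Gpr155 (75 and 31, 19.5 points).

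The sites that stood higher in heart began with Jam3, a junctional adhesion molecule of endothelial and other cells. Its peak lay inside the gene (chr9:27109566-27109763 in heart) and scored 23 in liver and 90 in heart, percentiles of 16.3 and 92.9 and a difference of -76.6 points. It was the only top-10% heart peak with a liver partner in the lower 50% of the liver list. Itpr3, whose promoter is shown above, scored 19 in liver and 47 in heart, at percentiles of 6.60 and 79.1 (-72.5 points). Sik1, a salt-inducible kinase, had a peak 23 bp from a gene end that scored 24 and 50 (-61.5 points). Abhd2, a hydrolase, scored 20 and 51 at a site 18894 bp upstream of the gene (-72.4 points). All 4 stood near the bottom of the liver list and high in the heart list.

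Usp2, a deubiquitinase and known clock output, had its sites split. At 2 of them the scores were 157 in liver and 96 in heart, and 161 and 101, with differences of 3.55 and 3.17 points. The third site, inside the gene body like the other 2, scored 27 in liver and 48 in heart (-52.7 points). Of the remaining genes, 8030462N17Rik scored 18 in liver and 36 in heart. Ssbp3, a cofactor of LIM domain transcription factors, scored 23 and 45 at a site 104 bp upstream of the gene. Tnxb, the matrix protein tenascin X, scored 19 and 33, and Slc1a7, a glutamate transporter, 26 and 53. Dpf1, a subunit of the BAF chromatin remodeller, scored 21 and 32, and Fam117b 26 and 41 at a site 262.5 bp upstream of the gene. Bcl2l11, which encodes the pro-apoptotic protein BIM, scored 19 and 28 at a site 17536.5 bp outside the gene. Dapk3, a kinase that phosphorylates myosin light chains, scored 30 and 47, Rybp, a component of Polycomb complexes, 32 and 52, and Gtdc1, a glycosyltransferase-like protein, 24 and 31.

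The heart score was the higher one at all 15 of these genes, but not at all 83 pairs that stood at least 20 points higher in heart. There it was higher in 65, equal in 7 and lower in 11, and the median scores were 31 in liver and 41 in heart. With the liver list shortened to its best peaks, or with the upper 50% of each list, no pair of the 15 heart-higher genes remained. Their choice fixed this outcome, since all 15 stood at liver percentiles of 37.41 or lower, below both cuts. Of the 15 liver-higher pairs, 5 remained with the upper 50% of each list. Just inside the limit lay Zbtb7c (38 and 35, -20.1 points), a pair with the lower score in heart, and just outside it Jmy (51 and 57, -19.9 points).

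**Figure D3:**
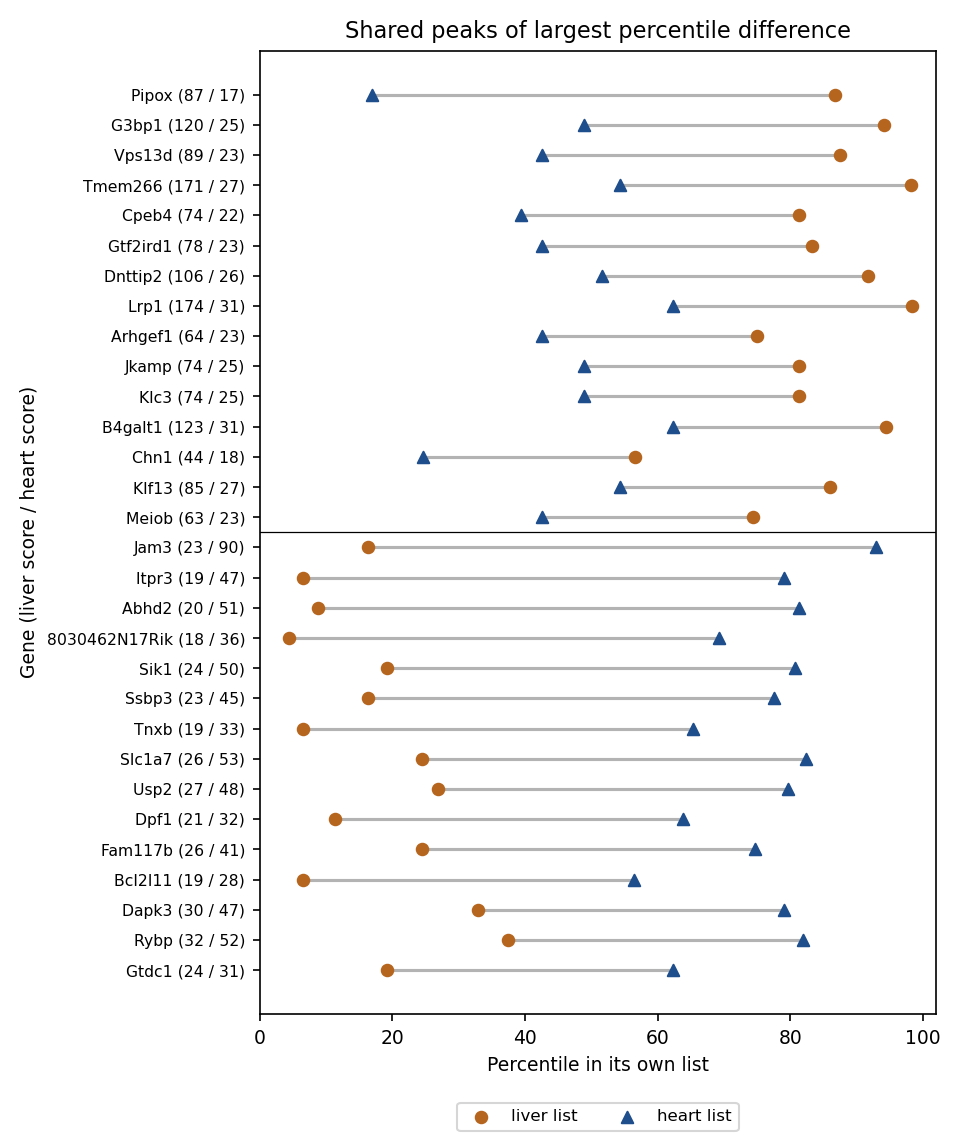
Percentile of the peak in the liver list (circles) and in the heart list (triangles) for the 15 genes that stood highest in liver (upper block) and the 15 that stood highest in heart (lower block), with the liver and heart scores in brackets. Liver-higher sites run from 56.5 to 98.3 in liver, and heart-higher sites from 56.4 to 92.9 in heart.

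The share of sites near a gene end was also set out by class. A site inside a gene can lie far from its ends by this measure. The centre was within 1 kb of an end of an annotated gene in 61.2% of shared pairs (400 of 654, 57.3 to 64.9%). The share was 41.2% for pairs that stood at least 20 points higher in liver (21 of 51, 27.6 to 55.8%), 59.0% for those higher in heart (49 of 83, 47.7 to 69.7%) and 63.5% for the others (330 of 520, 59.2 to 67.6%). The intervals reflect counting error over peaks of 1 pooled list per tissue and do not test a difference between classes. Which pairs fall in each class also changes with the base of the percentile, as given above.

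Of the 482 peaks in the top 10% of the liver list, with scores of at least 99, 210 had no overlapping heart peak (43.6%). They were assigned to 191 genes. The best scored 268, at rank 15 of the list, inside Ripor3. Few were near misses, since 11 of the 210 lay within 1 kb of a heart peak, edge to edge. Of the 191 genes, 44 had an assigned heart peak (23.0%). Among all genes with a liver peak, the like base, 927 of 3227 had one, and among all protein-coding genes 9.62%. A gene end lay within 1 kb of 46.7% of them (98 of 210, 39.8 to 53.7%), against 62.1% of top-10% liver peaks with a heart partner (169 of 272, 56.1 to 67.9%).

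The 20 highest of these liver sites are given by their nearest gene. Upp2, which encodes uridine phosphorylase 2, had a peak at its start site (chr2:58754888-58755129) with a score of 175 and 3 weaker liver peaks, and no heart peak. Shmt1, the cytosolic serine hydroxymethyltransferase of folate metabolism, scored 160 at its start site. Azin2, an antizyme inhibitor that acts on polyamine synthesis, scored 207 at a site inside the gene. Sdr9c7, a short-chain dehydrogenase, scored 193 at a site 33899.5 bp from the gene. Phospho1, a phosphatase of phosphocholine, scored 159 at a site 260.5 bp upstream, and had a heart peak elsewhere with a score of 23.

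Gm46592 scored 256 at a site 1230.5 bp from the gene, and Fgd2, an activator of the GTPase Cdc42, 245 at a site 17425.5 bp away. The latter lay 1138 bp, edge to edge, from a heart peak that scored 77. Nav2, a cytoskeletal protein, scored 245 inside the gene and had 5 heart peaks elsewhere with scores up to 41. Ccne2, which encodes cyclin E2, scored 199 and Fam47e 186, both inside the gene. Pacsin2, a membrane-bending protein, scored 182 at a site 8170.5 bp from the gene, as did a site inside Smyd1, a methyltransferase of heart and skeletal muscle. Fabp1, the liver fatty acid binding protein, lay 30282.5 bp from the Smyd1 site, and assignment here is by distance alone. A site inside 2900026A02Rik scored 177, one 48360.5 bp from Mn1, a transcriptional coactivator, 170, and one 744.5 bp from Gfod1 161. Hdgf, a growth factor, scored 173 near its start site, 472 bp from a heart peak with a score of 61. A site inside Snx9, a sorting nexin of endocytosis, scored 161, and one 18465.5 bp from Dlc1, a GTPase-activating protein, 159.

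Of the 250 peaks in the top 10% of the heart list, with scores of at least 76, 24 had no overlapping liver peak (9.60%), at 21 genes. The best, at rank 22, scored 201 and lay 9250.5 bp outside Zswim4 (chr8:84201593-84201790). Only 3 of the 24 lay within 1 kb of a liver peak. A gene end lay within 1 kb of 10 of the 24 (41.7%, 22.1 to 63.4%), against 65.0% of top-10% heart peaks with a liver partner (147 of 226, 58.4 to 71.2%). The lists differ in length, so the counts of 24 and 210 are not a comparison of the tissues. With the liver list shortened to 2545 peaks the liver count fell to 79.

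Fabp3 and Tcap were among these 24. Fabp3, the fatty acid binding protein of heart muscle, scored 101 at a site 737.5 bp upstream, with the nearest liver peak 329901 bp away. Tcap, which encodes telethonin of the sarcomeric Z-disc, scored 97 at a site 277.5 bp from the gene (chr11:98383435-98383632). A second heart peak, inside the neighbouring gene Stard3, a cholesterol transporter of endosomes, scored 133 and lay 5525 bp from it. Rbm20, the splicing factor of titin, had 2 such heart peaks inside the gene, with scores of 83 and 78, and 2 liver peaks elsewhere with scores up to 38.

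The other heart sites lay at genes of varied function. Ap5s1, an adaptor subunit of endosomes, scored 129 and Pik3ip1, an inhibitor of PI3 kinase, 117. Rai1, a chromatin protein, and Pdgfb, the platelet-derived growth factor B chain, scored 106 each. Cldn12, a claudin, scored 88 and Wnk2, a kinase that regulates chloride transport, 87. Kifc3, a kinesin, scored 84, Arl8a, a GTPase of lysosomes, 83, and Ntng2, a netrin-like protein, 81. Arl4a and Rasl11b, whose promoters are shown above, scored 80 each. Aldh9a1, an aldehyde dehydrogenase that takes part in carnitine synthesis, scored 77. Also among the 24 were a peak without a gene on chromosome 6 (137), another on chromosome 4 (76) and those at the genes below.

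At 3 genes each tissue had its own high site. Pfkl encodes the liver type of phosphofructokinase, the main control point of glycolysis. Its heart peak, centred 91.5 bp downstream of the start site, scored 87, and its liver peak, 414.5 bp downstream, scored 165; the gap between the peak edges was 103 bp. Trim37, a ubiquitin ligase, had a heart peak 128.5 bp upstream of the start (85) and a liver peak 105.5 bp downstream of it (157), with a gap of 14 bp. Lekr1 had peaks of 79 in heart and 105 in liver with 4123 bp between them. A like pair without a gene, on chromosome 6, scored 137 in heart and 144 in liver with a gap of 178 bp. Peaks are of fixed width in each list, and the gaps of 14, 103 and 178 bp are each under 1 peak width.

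**Figure D4:**
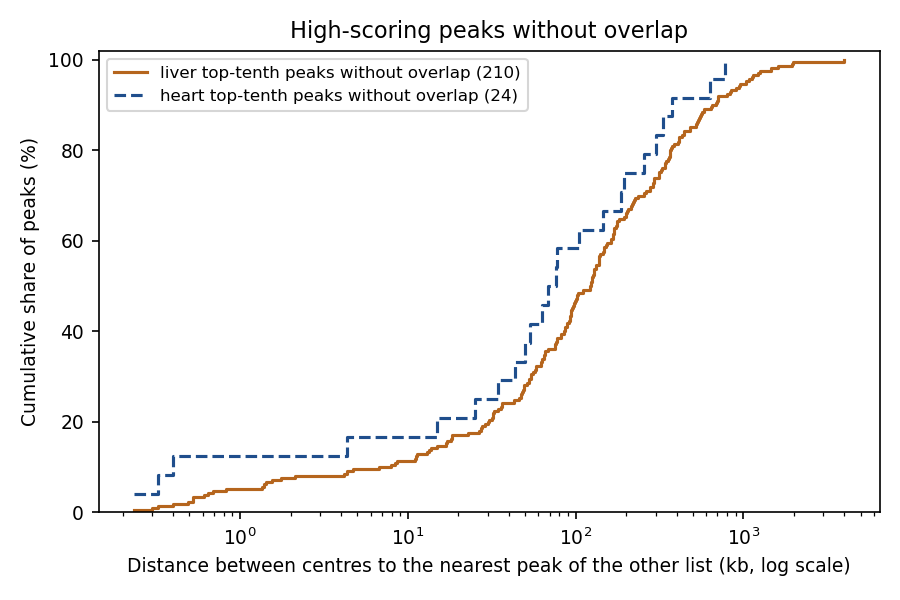
Cumulative share (%, y axis) of the top-10% peaks without overlap by the distance between their centre and that of the nearest peak of the other list (kb, log x axis), for 210 liver peaks (solid) and 24 heart peaks (dashed). Both curves start below 1 kb with the near misses and rise mainly beyond 10 kb; the medians are 122400 bp for liver and 72620 bp for heart.

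At the limit of the top 10%, 9 of 18 liver peaks with a score of 99 had no heart partner, among them sites at Ahcy, the S-adenosylhomocysteine hydrolase, and St6gal1, a sialyltransferase. Just outside, 9 of 12 peaks with a score of 98 had none, among them G6pc, the glucose-6-phosphatase of gluconeogenesis, Dgat2, an enzyme of triglyceride synthesis, and Irs2, an insulin receptor substrate. In heart, 1 of 4 peaks at 76 and 2 of 8 peaks at 75 had no liver partner, the latter at Entpd6 and Snx33.

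Gene lists typical of each tissue were read against the share of all protein-coding genes with a peak, 14.9% in liver and 9.62% in heart. Of 20 liver transcription factors, 15 had a liver peak and 0 a heart peak. Ppara, the nuclear receptor of fatty acid oxidation, had 7 liver peaks with scores from 31 to 152, Cebpa 5 with scores from 34 to 90, Onecut1 4 with scores from 28 to 78, and Hnf4a, the hepatocyte nuclear receptor, 3 with scores from 22 to 140. The peaks of 152 and 108 at Ppara and of 140 at Hnf4a were in the top 10% and had no heart partner. They were 3 of the 38 liver peaks at these genes, against 210 of 4813 in the whole liver list. Nr1i2, the pregnane X receptor, scored 53. Most were of medium rank, since the median best percentile over the 15 genes was 66.3, against 56.5 over all genes with a liver peak.

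Of 26 genes of liver metabolism, 16 had a liver peak and 3 a heart peak. Of their 39 liver peaks, 7 were in the top 10% without heart overlap, against 210 of 4813 in the whole liver list. Gys2, the liver glycogen synthase, had 2 of these, with scores of 146 and 136, Pygl, the liver glycogen phosphorylase, 1 of 111, Por, the electron donor of cytochromes P450, 2 of 109 and 100, Insig2, a brake on sterol synthesis, 1 of 111, and Upp2 the peak of 175 given above. The gluconeogenic genes G6pc, Pck1 and Fbp1 had best liver scores of 98, 77 and 74, and of the 3 only Fbp1 had a heart peak, at the floor score of 16. Nampt, the enzyme of NAD salvage, was shared, with 158 in liver and 112 in heart (1.72 points), and so was Lpin1, a phosphatidate phosphatase, with 110 and 82 at 1 site (0.82 points) and 44 and 35 at another (-11.4 points). Of 20 genes of proteins secreted by liver, 7 had a liver peak, with Alb (67) the highest, and 1 a heart peak, F2 (17). The 7 fell to 3 with the liver list shortened.

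The heart lists held fewer genes with a peak. Of 20 heart transcription factors, 6 had a heart peak and 3 a liver peak, and 3 each in the upper 50% of the lists. Klf15, a regulator of muscle and liver metabolism, was shared at 2 sites, with 216 and 142 in liver and 139 and 93 in heart, and Mef2d at 2 sites, with 99 and 61 in liver and 92 and 37 in heart. Gata4 (26), Tead1 (25), Mef2a (19) and Hand1 (18) had only heart peaks. Esrra, the nuclear receptor ERR alpha, had a top-10% liver peak (116) and no heart peak. Of 27 genes of the sarcomere and calcium handling, 5 had a heart peak: Tcap (97), Myl2, the ventricular myosin light chain (45), Actn2, alpha-actinin of the Z-disc (41), Atp2a2, the calcium pump SERCA (37), and Ckm, muscle creatine kinase (24). Csrp3 (35) and Cacna1c (23) had the 2 liver peaks. Of 15 ion channels and connexins, 5 had a heart peak and 1 a liver peak. Among the heart peaks were those of Kcnj11 (64), Gjc1 (43), Kcnh2 (35) and Kcnd3 (29).

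Genes of muscle fuel use had peaks in both lists, 9 of 24 in liver and 6 of 24 in heart. The order of these counts rests on the longer liver list, since they were 5 and 6 with that list shortened and 4 and 4 in the upper 50% of each. Ldha was the only one with a shared pair, at 124 in liver and 74 in heart (5.03 points). Fabp3 (101), Hk1 (42), Pfkm (24) and Pfkp (22) had heart peaks alone. Ppargc1b, a coactivator of mitochondrial genes, had 5 liver peaks from 37 to 105, the strongest in the top 10%, and Cpt1a, the liver carnitine palmitoyltransferase, 1 of 65, both with no heart peak. Hepatocyte and heart muscle markers were checked as well: of Alb, Apoa1, Ttr, Serpina1a and Hnf4a, Alb and Hnf4a had liver peaks and none had a heart peak, while Myh6, Tnnt2, Actc1, Nkx2-5 and Ryr2 had no peak assigned in either list. Markers of other cells were read against the same shares of all genes, 14.9% in liver and 9.62% in heart. Endothelial markers had a liver peak at 2 of 10 genes (scores up to 32) and a heart peak at 2 of 10 (up to 25). These shares, 20.0% in each list, are not below those of all genes. Leukocyte and fibroblast markers had 0 of 10 each in both lists. Of 10 kidney tubule markers 2 had a liver peak (20.0%), and 1, Cdh16, a heart peak with a score of 55 (10.0%). Lists of 10 genes are too short to set these shares apart from those of all genes.

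**Figure D5:**
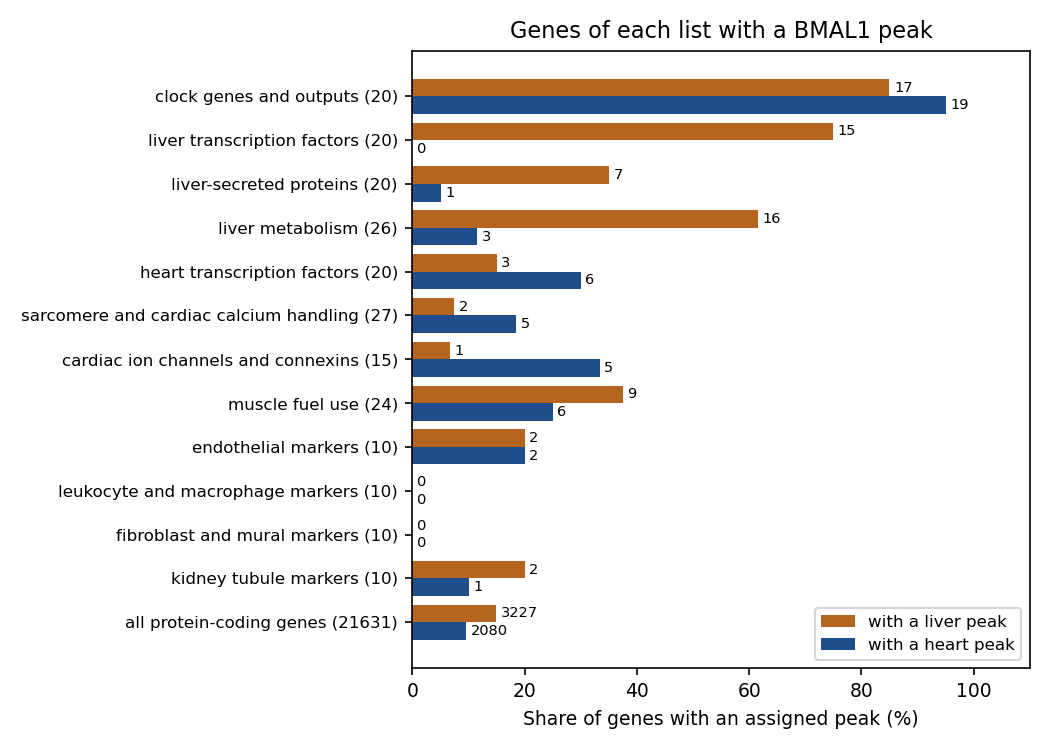
Share of the genes of each list (%, x axis) with an assigned liver peak (upper bar) or heart peak (lower bar), with the number of genes at the bar end and the list size in brackets; the lowest pair of bars is all protein-coding genes. Liver transcription factors stand at 15 genes in liver and 0 in heart, and clock genes at 17 and 19.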

How the data were processed

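BMAL1 ChIP-seq and input libraries came from liver and heart of the same 3 mice, fixed with 1% formaldehyde and read at 75 bp, per the labels. Per the series' design text, the authors pooled the ChIP and input libraries of each tissue before calling 1 peak list. Bowtie2, SAMtools, HOMER and the build mm10 are named in the submitters' processing notes. Versions and peak caller settings were not given in the sources used here. As deposited by the authors, a list holds a position and a score per peak. What the score measures is not given either, so it served only for ranks and descriptions inside its own list. The heart input libraries have kidney as their source label, while title and tissue label say heart. Were the former right, heart peaks would have been called against kidney input, which was not testable from the files and bears on every heart value.

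From these lists, overlaps of at least 1 bp (bedtools 2.31.1, Python 3.11.15) and percentiles were computed, as 100 times the ascending rank less 0.5, ties averaged, over the list length. The overlap step was tested on simulated peaks with known answers. Genes are the nearest of 21631 protein-coding genes within 50 kb of the centre, 0 bp inside a gene body. Genes and promoters came from RefSeq, GRCm38.p6, the same assembly as mm10. The gene table gives no strand or exons, so gene ends stand in for start sites except where the promoter table, which is not complete, lists one. Intervals of shares are exact Clopper-Pearson intervals at 95% and reflect counting error alone. With 1 list per tissue no test was made. The genes named are the 15 with the largest percentile difference in each direction, the 20 highest unshared top-10% peaks of each list, all clock genes, genes of the other lists with a shared pair or an unshared top-10% peak, and genes at the limits. Some genes that this rule covers are not reported here. Others named were chosen after their values were seen, among them the last of the 24 heart peaks, the promoters shown for Dvl2 and Slc20a1 and the list genes with weaker peaks. The comparison, the members and the gene lists were chosen with earlier results of these data known. Alternatives changed the overlap rule, the peaks that entered, the percentile base, the thresholds and the gene assignment.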

Additional observations from a re-analysis of the deposited data

Results flagged for a closer look

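Kidney peaks of the same series, which the comparison of liver with heart does not use, overlapped many of the sites that set the lists apart. Of the 210 top-10% liver peaks without heart overlap, 127 overlapped a kidney peak (60.5%, exact 95% interval 53.5 to 67.1%). Over the whole top 10% of the liver list the share was 80.1% (386 of 482). Of the 24 top-10% heart peaks without liver overlap, 15 overlapped a kidney peak (62.5%, 40.6 to 81.2%), against 95.6% of the whole top 10% of the heart list (239 of 250). The Fabp3 site was among those 15, where the kidney peak stood at percentile 98.4 and the heart peak at 94.6. By contrast, no kidney peak overlapped the Tcap site. No control samples without BMAL1 were used here.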

How the results depend on the processing

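No paired analysis was possible because the authors pooled the 3 mice of a tissue into 1 list, so no replicate could be left out either. With the liver list shortened to its 2545 best peaks, the median difference turned to -6.14 points, the pairs at least 20 points higher in liver fell to 17, those higher in heart rose to 160, the unshared top-10% liver peaks fell to 79, and Chn1 turned to -6.85 points. No heart-higher named pair remained there, since all of them lay below the cut of the liver list. Of the 15 liver-higher ones, 9 stayed past 20 points. With percentiles among shared peaks only, the median was -0.99 and 84 pairs were higher in liver and 87 in heart. With the upper 50% of each list, the median was 1.65, 76 pairs were higher in liver and 74 in heart, 73 liver and 7 heart top-10% peaks were unshared, and of those 7 heart peaks 0.0% lay within 1 kb of a gene end. Taking 30 points gave 19 and 42 pairs. Unshared peaks numbered 72 in liver and 7 in heart in the top 5%, and 576 and 111 in the top 20%. Within 5 kb of a gene end lay 78.9% of shared pairs, 58.8% of the liver-higher, 71.1% of the heart-higher and 67.6% of the unshared liver peaks. The alternatives for the gene lists were chosen after seeing the data. Sarcomere genes with a liver peak numbered 0 with the shortened liver list and with the upper 50%, and 1 by nearest gene end, and channel genes with a liver peak 0 under the first 2 of these. Under those 2, fuel genes with a liver peak fell from 9 to 5 and 4 and liver-secreted ones from 7 to 3 and 3, and with the upper 50% heart transcription factors with a heart peak fell from 6 to 3. Overlap of 50% of the narrower peak, or centres within 1000 bp, moved none of the counts and medians by the rule used here (1.5 times for counts). With 50% overlap, 13 of the 15 named liver-higher pairs remained, without those at Arhgef1 and Chn1, and all 15 heart-higher ones. The nearest gene end named the same gene for 28 of the 30 pairs and a limit of 10 kb for 25. Depth limits all comparisons to peaks strong enough to be called.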

Other observations

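The genes below were chosen after their values were seen, with no list or test behind the choice. Among top-10% liver peaks without an overlapping heart peak, Srm, spermidine synthase, scored 149 at a site 131.5 bp from the gene and Ass1, argininosuccinate synthase, 112 at a site 132.5 bp away. Odc1, ornithine decarboxylase, scored 136 inside the gene, and a heart peak with a score of 56 lay 307 bp from it, edge to edge.

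Among shared pairs that stood higher in liver, Slc27a2, a fatty acid transporter and acyl-CoA synthetase, scored 233 in liver and 37 in heart (28.9 points), and Qdpr, which recycles tetrahydrobiopterin, 153 and 35 (29.3 points). Among those that stood higher in heart, Akt1, a kinase, scored 29 in liver and 35 in heart (-37.0 points). The insulin receptor gene Insr scored 25 and 26 at one site (-29.7 points) and 19 and 20 at the other (-27.3 points). The Insr scores differ by 1 at each site, so these differences rest on the distribution of the other scores of each list.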
